A study of Mus musculus with 12 samples.

Results

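The 10 genes described here encode upstream regulators of Hippo signaling, the angiomotins (*Amot*, *Amotl1* and *Amotl2*), the FERM protein FRMD6, the WWC proteins (*Wwc1* and *Wwc2*), the Ajuba family of LIM proteins (*Ajuba*, *Wtip* and *Limd1*) and the atypical cadherin Dachsous (*Dchs1*). They were taken by symbol from the 56980 genes of the count matrix. Each symbol matched 1 row, and all 10 passed the filter on low counts (10 or more over the 12 libraries), as did 17691 genes in all. W-20 cells are a murine bone marrow stromal cell line, and the study used bulk RNA-Seq to ask how PTH changes their transcriptome outside the cAMP pathway. The 12 libraries fall into 4 groups of 3. W-20 cells of genotype WT were exposed for 2 hours to vehicle (PBS) or to 50 nM PTH, and cells of a line titled Y428F were exposed to the same treatments. According to the methods, the Y428F line carries an introduced Flag-tagged YAP in which the tyrosine its name gives is replaced by phenylalanine. Whether the cells' own *Yap1* was kept is not stated there. The paper describes the line it sequenced as carrying, beside Y428F, a serine-to-alanine change at a LATS1 phosphorylation site of YAP, which the titles leave out. The methods describe selection of positive clones without giving their number. The genotype field of the Y428F libraries reads WT, and their titles were followed here. Libraries labelled as carrying an introduced wild-type YAP, or the serine change alone, were not analysed here, so both changes, the introduced YAP and the choice of clones cannot be told apart. *Yap1* had 181, 192 and 194 CPM in WT cells with vehicle and 245, 246 and 230 CPM with PTH, and in the libraries labelled Y428F it had 150, 141 and 149 CPM and 171, 169 and 174 CPM. It was thus lower in the latter, by a log2 of -0.37 with vehicle (adjusted p = 7.7e-06) and -0.49 with PTH (adjusted p = 1.35e-07, edgeR). Whether reads of the introduced YAP were counted under *Yap1* is not given in the sources used here, so these counts do not check the label. The libraries held between 17127897 and 19057319 counts (median 17740980). The paper states in general that its data come from independent experiments. The legend of the figure with the WT RNA-Seq says so of data shown as a mean with its SEM. Neither names these libraries, so the p-values measure the spread between them, which may be technical.

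In the Hippo pathway, MST kinases activate LATS kinases, which phosphorylate the coactivators YAP and TAZ and keep them out of the nucleus, where they would otherwise bind TEAD transcription factors. Angiomotins are junction and actin scaffolds that bind YAP directly and activate LATS. FRMD6, the counterpart of fly Expanded, and WWC proteins (KIBRA and its relatives) promote LATS activation at the membrane, whereas Ajuba, WTIP and LIMD1 bind LATS at junctions under tension and restrain it. Dachsous is the ligand of the cadherin FAT4. Several of these regulators, *Amotl2* and *Ajuba* among them, are known as targets of YAP and TEAD in other cells.

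The promoters were read from the genome of the files' build to show which of them hold the core TEAD motif, CATTCC on either strand. The window ran from 250 bases before to 50 bases after the start of the canonical GENCODE transcript. It held the motif in 5 of the 10 genes, *Amotl2*, *Frmd6*, *Wtip*, *Wwc1* and *Wwc2*, and in 14% of the windows of 21757 protein-coding genes. The windows of *Wtip*, *Wwc2*, *Amotl2* and *Frmd6*, with 4, 3, 2 and 1 copies, are shown with the motif in capitals and the transcript's strand written 5′ to 3′ (GRCm39).
Wtip, chr7:33832682-33832981, minus strand: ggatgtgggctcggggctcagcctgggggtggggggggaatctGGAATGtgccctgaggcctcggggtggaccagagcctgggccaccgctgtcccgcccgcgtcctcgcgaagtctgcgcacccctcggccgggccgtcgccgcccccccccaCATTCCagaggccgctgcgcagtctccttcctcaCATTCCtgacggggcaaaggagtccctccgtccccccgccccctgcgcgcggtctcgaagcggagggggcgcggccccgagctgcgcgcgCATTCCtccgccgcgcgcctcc
Wwc2, chr8:48443558-48443857, minus strand: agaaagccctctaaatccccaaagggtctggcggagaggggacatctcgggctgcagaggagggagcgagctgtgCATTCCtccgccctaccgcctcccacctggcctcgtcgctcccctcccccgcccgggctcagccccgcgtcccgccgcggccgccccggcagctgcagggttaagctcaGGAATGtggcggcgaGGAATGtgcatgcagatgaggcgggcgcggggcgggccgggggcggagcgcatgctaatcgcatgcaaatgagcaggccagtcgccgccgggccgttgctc
Amotl2, chr9:102594617-102594916, plus strand: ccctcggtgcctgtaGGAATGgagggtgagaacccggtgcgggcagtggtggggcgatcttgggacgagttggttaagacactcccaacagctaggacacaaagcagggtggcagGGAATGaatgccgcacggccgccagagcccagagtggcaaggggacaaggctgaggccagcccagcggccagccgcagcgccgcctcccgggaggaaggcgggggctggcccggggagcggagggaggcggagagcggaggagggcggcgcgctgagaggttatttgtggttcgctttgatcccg
Frmd6, chr12:70871813-70872112, plus strand: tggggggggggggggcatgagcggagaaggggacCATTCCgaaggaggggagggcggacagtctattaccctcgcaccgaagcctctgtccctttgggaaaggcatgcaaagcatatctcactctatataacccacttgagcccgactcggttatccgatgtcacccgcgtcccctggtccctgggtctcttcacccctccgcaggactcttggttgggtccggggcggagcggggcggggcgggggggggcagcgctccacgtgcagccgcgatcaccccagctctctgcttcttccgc
In *Wtip* the copies begin at -207, -96, -62 and 28, counted from 0 at the start of transcription. The core of the cAMP response element, TGACG on either strand, was present in 22.6% of all windows and in those of *Amot*, *Amotl1* and *Wtip*, and in *Wtip* it directly follows the TEAD motif at -62. The CArG box of SRF was present in 1.5% of all windows and in none of the 10. A match is a description of these letters, and binding was not measured.

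Levels of different genes were compared as CPM (each library's counts scaled to the same total after TMM, a correction for library composition) divided by the exonic length in kilobases. This length counts every annotated exonic base of a gene, and canonical transcripts are shorter to unequal degrees. Canonical and full lengths were 4328 and 7060 bases for *Amotl2*, 3399 and 3800 for *Ajuba* and 8699 and 16924 for *Wwc2*. The order of the genes and the family shares rest on this choice of length. By that measure *Ajuba* and *Amotl2* were the most abundant of the 10 in WT cells with vehicle, at 60.2 ± 3.65 and 59.9 ± 4.82 CPM per kb (SD, n = 3), and their ranges overlapped. *Amotl1*, *Frmd6*, *Amot*, *Limd1* and *Wwc2* followed, with means from 15.1 to 23.3 CPM per kb. *Wtip* had 7.12 ± 0.200 CPM per kb. *Dchs1* and *Wwc1* were far lower, with 0.307 ± 0.0300 and 0.0654 ± 0.0340 CPM per kb. *Wwc1* had only 7 to 15 counts per WT library, and the 95% interval of its log2 change with PTH in WT cells ran from -0.67 to 1.11. Within each family 1 gene made up most of the level. *Amotl2* held 60.5% ± 3.40 (SD, n = 3) of the summed angiomotin level with vehicle in WT cells, *Ajuba* 73.0% ± 1.58 of that of the Ajuba family, and *Wwc2* 99.6% ± 0.233 of that of the WWC genes.

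**Figure D1:**
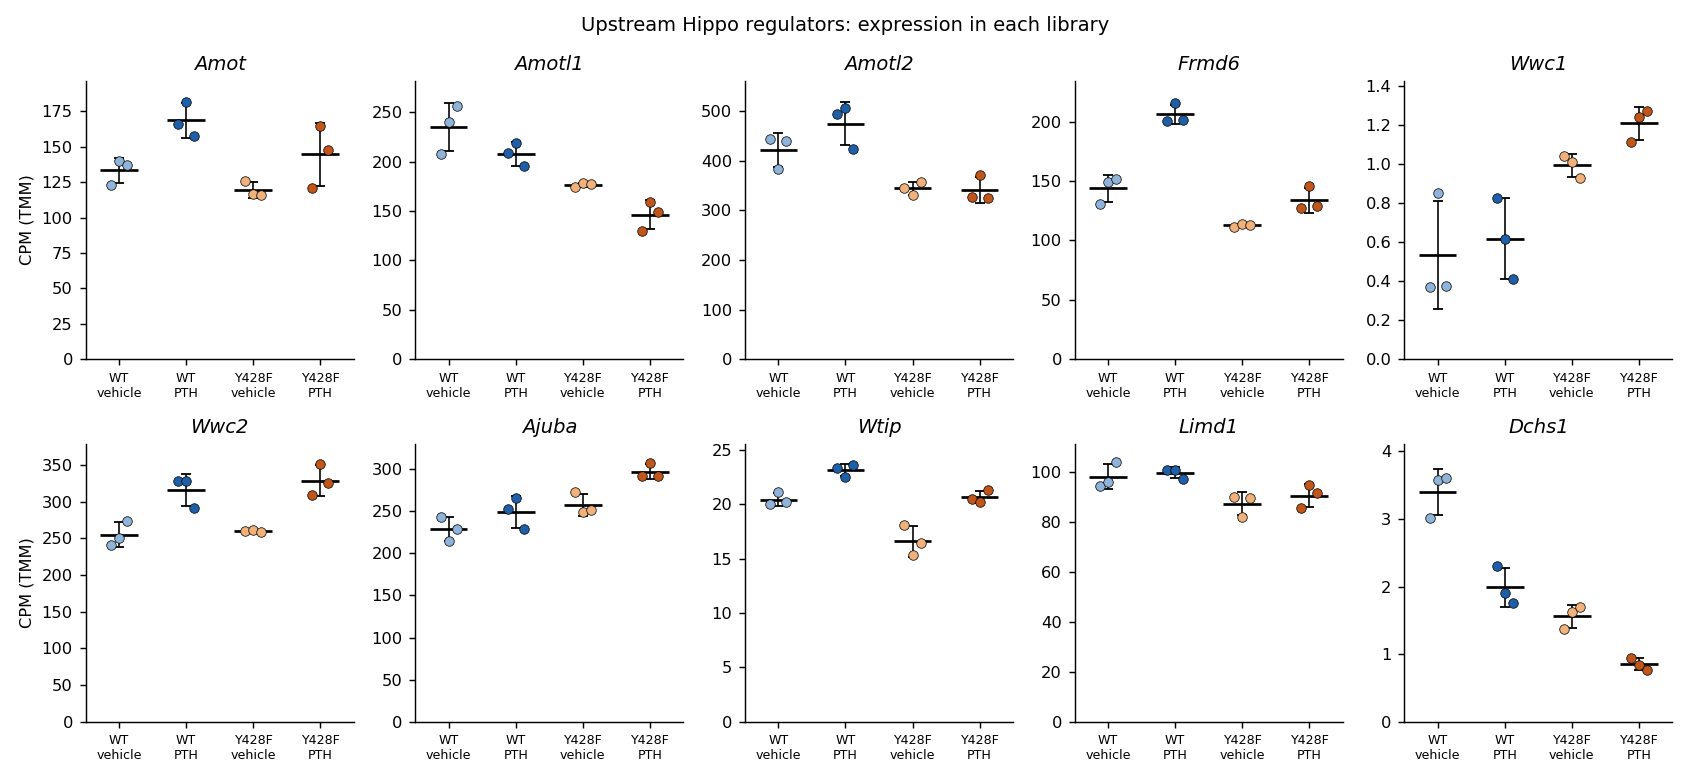
Expression of the 10 genes in CPM (TMM), each axis starting at 0. Points are the 12 libraries in 4 groups of 3, long bars are group means and error bars are 1 SD. *Frmd6* and *Wwc2* were higher with PTH than with vehicle in both cell lines, and *Dchs1* fell in steps from 3.40 CPM in WT cells with vehicle to 0.852 CPM in Y428F cells with PTH.

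PTH raised *Frmd6*, *Amot* and *Wwc2* and lowered *Dchs1* in WT cells. A gene was called when its adjusted p was under 0.05 (quasi-likelihood test of edgeR, 1 fit of all 12 libraries, adjusted after Benjamini and Hochberg across every gene that passed the filter), and all adjusted p-values of the members come from it. Of the 10 genes, 3 were called higher and 1 lower, against 7.42% and 6.01% of all genes tested, 13.4% together. Their median log2 fold change was 0.17, against -0.019 over all genes. With library totals in place of TMM, 37.3% of all calls were upward in place of 55.2%. In Y428F cells 5 of the 10 were called higher with PTH (background 6.61%) and 2 lower (5.78%, together 12.4%), with a median log2 fold change of 0.23 against -0.007 over all genes. With library totals 38.1% of all calls in these cells were upward in place of 53.4%. Each value is an average over bulk RNA, in which fewer expressing cells and less RNA per cell cannot be told apart. *Frmd6*, *Wtip*, *Amotl1* and *Dchs1* were picked by the study from these same libraries, so counts over the 10 genes are not independent evidence of a direction.

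*Frmd6* (ENSMUSG00000048285.10) occupies chromosome 12 from 70871627 to 70949010 (GRCm39, GENCODE vM39, plus strand, 14 exons in the canonical transcript). Its libraries had 131, 149 and 152 CPM in WT cells with vehicle and 201, 216 and 202 CPM with PTH. In Y428F cells they had 111, 114 and 113 CPM with vehicle and 127, 146 and 129 CPM with PTH. In each line all PTH libraries were above all vehicle libraries, and the PTH libraries of Y428F cells lay below those of WT cells. The log2 fold change with PTH was 0.51 in WT cells (standard error 0.064, adjusted p = 1.24e-05) and 0.25 in Y428F cells (standard error 0.065, adjusted p = 0.0129). The WT call was made with each of the 12 libraries left out. That of Y428F cells was not made without Y428F vehicle library 1 (adjusted p = 0.0501) or Y428F PTH library 2 (adjusted p = 0.0675). The difference in response was -0.26 with a 95% interval from -0.45 to -0.07. Its unadjusted p was 0.00974 and its adjusted p was 0.443, so it did not pass the threshold.

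*Wwc2* (ENSMUSG00000031563.9), from 48276994 to 48443959 on chromosome 8 (minus strand), is the WWC gene that held most of the family's RNA level in these cells. It had 241, 250 and 274 CPM in WT cells with vehicle and 328, 329 and 291 CPM with PTH. In Y428F cells the values were 260, 261 and 259 CPM with vehicle and 309, 352 and 326 CPM with PTH. The treatments did not overlap in either line, and the lines overlapped at each treatment. On the log2 scale the change was 0.31 in WT cells (standard error 0.064, adjusted p = 0.00257) and 0.34 in Y428F cells (standard error 0.064, adjusted p = 0.00129), and both calls were made with each library left out. The difference in response was 0.03 (95% interval -0.16 to 0.22). Its relative *Wwc1*, the gene of KIBRA itself (ENSMUSG00000018849.7, from 35729216 to 35871639 on chromosome 11, minus strand), had 0.370 to 0.853 CPM in WT cells with vehicle and 0.408 to 0.825 CPM with PTH. The interval of its change with PTH ran from -0.67 to 1.11 in WT cells, too wide to place it. The exons of *Wwc2* share 995 bases with *Cldn22* on the opposite strand, which had 0 counts in every library.

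The 3 angiomotin genes did not move together with PTH. *Amot* (ENSMUSG00000041688.17, from 144229421 to 144288177 on chromosome X, minus strand) had 123, 140 and 137 CPM in WT cells with vehicle and 166, 182 and 158 CPM with PTH. In Y428F cells it had 126, 117 and 116 CPM with vehicle and 121, 165 and 148 CPM with PTH. The WT treatments did not overlap, whereas Y428F PTH library 1 lay within the range of its vehicle libraries. The log2 fold change was 0.34 in WT cells (standard error 0.086, adjusted p = 0.0103) and 0.27 in Y428F cells (standard error 0.086, adjusted p = 0.0413). The WT call was lost without WT PTH library 2 (adjusted p = 0.0593). That of Y428F cells was lost without any one of its libraries other than PTH library 1, with an adjusted p from 0.055 to 0.218, and with library totals (adjusted p = 0.0689).

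*Amotl1* (ENSMUSG00000013076.18, from 14453262 to 14556352 on chromosome 9, minus strand) went the other way. It had 208, 240 and 256 CPM in WT cells with vehicle and 209, 219 and 195 CPM with PTH, and these ranges overlapped. In Y428F cells the vehicle libraries, at 174, 178 and 177 CPM, lay above the PTH libraries, at 130, 159 and 149 CPM. The log2 fold change was -0.18 in WT cells (adjusted p = 0.135) and -0.28 in Y428F cells (standard error 0.076, adjusted p = 0.0198). The call in Y428F cells was lost without vehicle library 1, 2 or 3 or PTH library 1 (adjusted p from 0.0538 to 0.0991). In WT cells *Amotl1* passed the threshold without vehicle library 1 (adjusted p = 0.0198), and also with library totals (adjusted p = 0.0315), with no filter on low counts (adjusted p = 0.0472), with an offset for exonic length (adjusted p = 0.0441) and with that offset and the replicate block (adjusted p = 0.0279).

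*Amotl2* (ENSMUSG00000032531.16, from 102593836 to 102610617 on chromosome 9, plus strand), the most abundant angiomotin, had 444, 383 and 441 CPM in WT cells with vehicle and 495, 506 and 425 CPM with PTH. In Y428F cells it had 345, 331 and 358 CPM with vehicle and 327, 372 and 325 CPM with PTH. The treatments overlapped in both lines. The log2 fold changes were 0.17 (95% interval 0.02 to 0.32, adjusted p = 0.149) and -0.01 (95% interval -0.17 to 0.14, adjusted p = 0.942). Without WT PTH library 3 the WT value was 0.24 and passed the threshold (adjusted p = 0.0257). The summed angiomotin level was 99.0 ± 4.73 CPM per kb in WT cells with vehicle and 108 ± 8.61 with PTH. It was 80.6 ± 1.92 and 80 ± 7.38 CPM per kb in Y428F cells, where no library reached the lowest WT value of 94.7. *Amotl1* and *Amotl2*, which make up most of the sum, lie on chromosome 9, where the median gene was also lower in Y428F cells, by a log2 of -0.24 with vehicle. Relative to that median *Amotl2* was at -0.06 with vehicle, in place of -0.29. The share of *Amotl1* in that sum was 23.5% ± 2.16 with vehicle and 19.1% ± 0.524 with PTH in WT cells, and 21.7% ± 0.654 and 18.1% ± 0.731 in Y428F cells. Its vehicle and PTH libraries did not overlap in this share in either line.

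**Figure D2:**
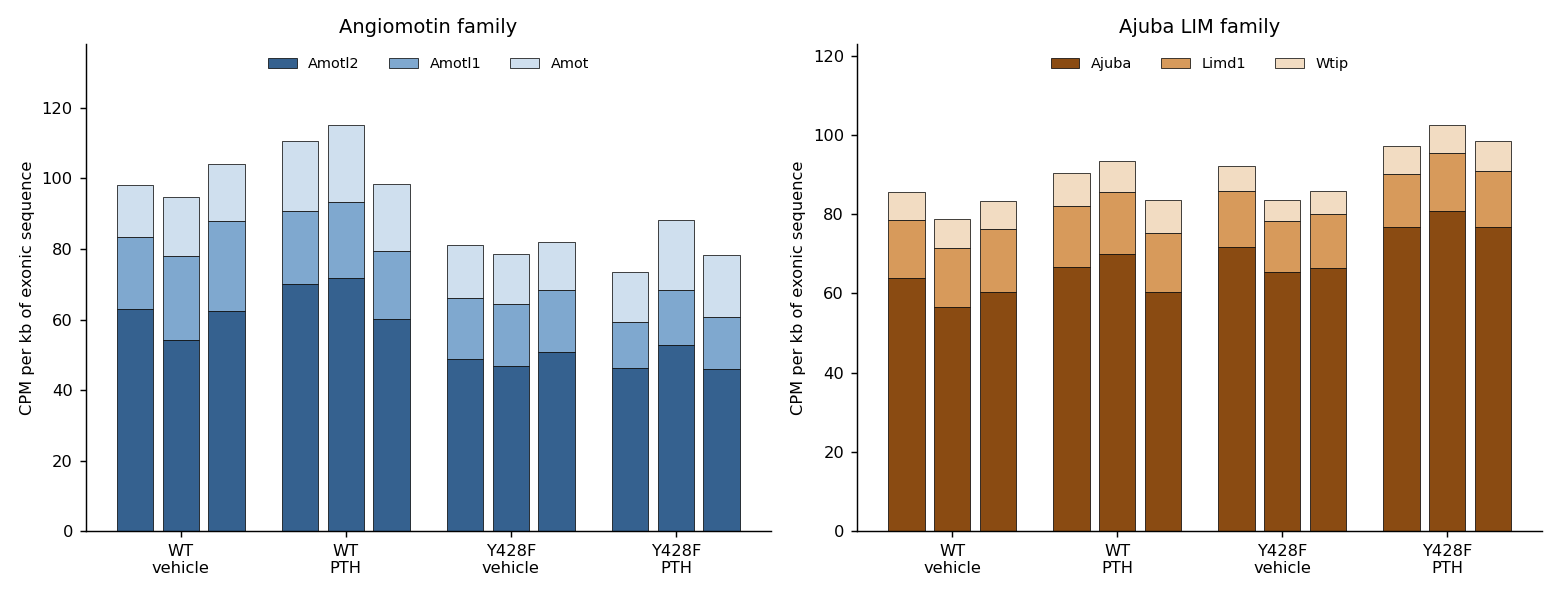
Summed level of the angiomotin genes (left) and of the Ajuba family genes (right) in each of the 12 libraries, in CPM per kb of exonic sequence, stacked by gene. The angiomotin sum, with *Amotl1* and *Amotl2* from chromosome 9, whose median gene was also lower in Y428F cells (log2 -0.24 with vehicle), is lower in all 6 Y428F libraries than in all 6 WT libraries, and *Amotl2* and *Ajuba* make up most of each stack.

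Among the Ajuba family, the treatments separated *Wtip* in both lines. *Wtip* (ENSMUSG00000036459.16, from 33808584 to 33832732 on chromosome 7, minus strand) had 20, 21.1 and 20.2 CPM in WT cells with vehicle and 23.3, 22.5 and 23.6 CPM with PTH. In Y428F cells it had 18.1, 15.3 and 16.4 CPM with vehicle and 20.5, 20.2 and 21.3 CPM with PTH. Its change was a log2 of 0.18 in WT cells (95% interval 0.01 to 0.35, adjusted p = 0.174) and 0.32 in Y428F cells (standard error 0.084, adjusted p = 0.0157). The Y428F call was lost without vehicle library 2 or 3 or PTH library 3 (adjusted p from 0.0542 to 0.0972). The difference in response was 0.14 (95% interval -0.11 to 0.38, adjusted p = 0.884).

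*Ajuba* (ENSMUSG00000022178.12, from 54804787 to 54815027 on chromosome 14, minus strand) had 243, 215 and 229 CPM in WT cells with vehicle and 253, 266 and 229 CPM with PTH. In Y428F cells it had 273, 249 and 252 CPM with vehicle and 292, 307 and 292 CPM with PTH, so that the treatments separated in this line alone, which is not a test of a difference between the lines. The change was a log2 of 0.12 in WT cells (adjusted p = 0.244) and 0.20 in Y428F cells (standard error 0.063, adjusted p = 0.0412), with a difference of 0.08 (95% interval -0.11 to 0.27). The Y428F call was lost without any one of its libraries other than vehicle library 1 (adjusted p from 0.0536 to 0.156) and with library totals (adjusted p = 0.0848). *Limd1* (ENSMUSG00000025239.4, from 123307732 to 123350726 on chromosome 9, plus strand) had 94.6, 96.0 and 104 CPM with vehicle and 101, 101 and 97.2 CPM with PTH in WT cells. The change with PTH (log2) was 0.02 in WT cells (95% interval -0.10 to 0.15) and 0.05 in Y428F cells (95% interval -0.07 to 0.18).

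*Dchs1* (ENSMUSG00000036862.16, from 105402197 to 105436861 on chromosome 7, minus strand, 21 exons in the canonical transcript) had the largest change with PTH among the 10 genes in both lines, at a low level. It had 57, 63 and 67 counts in the WT vehicle libraries and 39, 31 and 30 in the WT PTH libraries, or 3.01, 3.58 and 3.6 CPM and 2.30, 1.91 and 1.75 CPM. The Y428F libraries gave 25, 32 and 31 counts without PTH and 17, 15 and 14 with it, or 1.37, 1.62 and 1.69 CPM and 0.943, 0.842 and 0.771 CPM. In CPM no 2 of the 4 groups overlapped, with 1.75 as the lowest WT PTH value and 1.69 as the highest Y428F vehicle value. In counts these groups did overlap. The log2 fold change with PTH was -0.77 in WT cells (standard error 0.22, adjusted p = 0.0209) and -0.87 in Y428F cells (standard error 0.26, adjusted p = 0.0320). The WT call was lost without vehicle library 2 or 3 or PTH library 2 or 3 (adjusted p from 0.0691 to 0.0747). That of Y428F cells was lost without any one of its libraries other than vehicle library 1 (adjusted p from 0.0569 to 0.103), with DESeq2 (adjusted p = 0.0764), with no filter on low counts (adjusted p = 0.0697) and with the 6 Y428F libraries alone (adjusted p = 0.063). *Gm57787*, a lncRNA of the annotation on the opposite strand, shares 648 exonic bases with *Dchs1*, and no source says whether strand was used in counting.

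**Figure D3:**
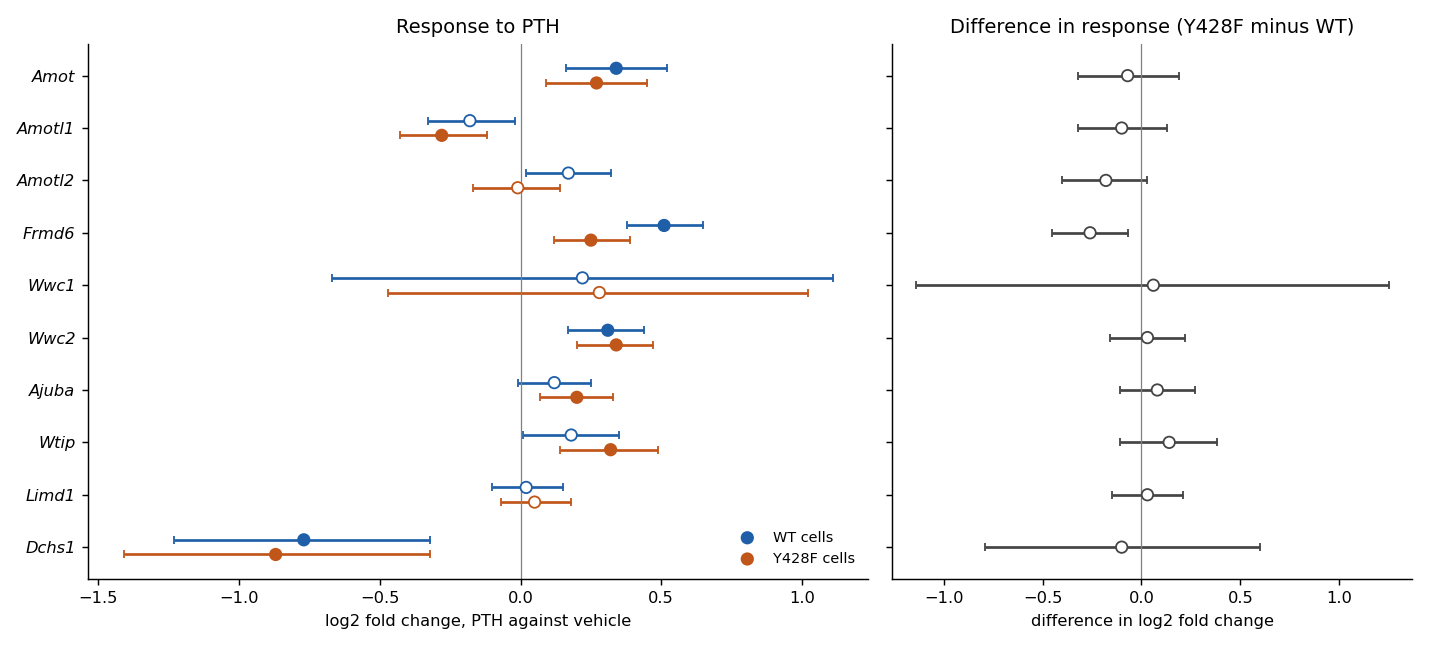
Log2 fold change with PTH in WT and Y428F cells (left) and the difference between these responses (right) for each of the 10 genes, with 95% intervals. Filled points have an adjusted p under 0.05. *Frmd6* has the largest rise in WT cells at 0.51, *Dchs1* falls in both lines, and none of the 10 differences is past the threshold.

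The difference in response to PTH between the lines was tested for each of the 10 genes, and none was called, against 0.413% of all genes tested. At an unadjusted p under 0.05 there was 1, *Frmd6*, against 7.05% of all genes. The count of calls was also 0 with DESeq2's Wald test and with no filter on low counts. At an unadjusted p under 0.05, DESeq2's Wald test gave 1 of the 10, against 5.28% of all genes. With no filter there were 2, *Amotl2* and *Frmd6*, against 5.86% of all genes. The intervals of the differences reached from -0.40 to 0.38 for *Amot*, *Amotl1*, *Amotl2*, *Wwc2*, *Ajuba*, *Wtip* and *Limd1* and were wider for *Dchs1*, from -0.79 to 0.60, and for *Wwc1*, whose difference of 0.06 had a standard error of 0.57.

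Between the lines, *Amotl1*, *Amotl2*, *Frmd6* and *Dchs1* were lower in Y428F cells at both treatments. With vehicle 6 of the 10 genes were called lower in Y428F than in WT cells and 1 higher, against 22.7% and 22.4% of all genes, 45.1% together. With these 4, *Wtip* and *Limd1* made up the 6, and the gene called higher was *Ajuba*. With PTH, 5 were lower (background 23%) and 2 higher (22.8%, together 45.7%). The median log2 difference of the 10 was -0.23 with vehicle and -0.19 with PTH, against 0.012 and 0.019 over all genes. The comparisons with vehicle and with PTH use different libraries, but of the same lines and in the same fit. They are therefore not independent tests of a difference between the lines.

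*Dchs1* differed most. Its log2 fold change in Y428F against WT cells was -1.12 with vehicle (standard error 0.22, adjusted p = 0.000264), from 3.40 ± 0.332 to 1.56 ± 0.169 CPM, and -1.21 with PTH (standard error 0.26, adjusted p = 0.00052). For *Frmd6* the values were -0.36 with vehicle (standard error 0.065, adjusted p = 0.000106) and -0.62 with PTH (standard error 0.064, adjusted p = 8.4e-08). *Amotl1* was lower by a log2 of -0.41 (adjusted p = 0.000119) and -0.51 (adjusted p = 1.09e-05), and *Amotl2* by -0.29 (adjusted p = 0.00255) and -0.48 (adjusted p = 1.72e-05). These 4 genes were called at both treatments with each of the 12 libraries left out. *Wtip* was lower with vehicle, at -0.30 (standard error 0.084, adjusted p = 0.00554), and had -0.17 with PTH (adjusted p = 0.111).

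The remaining genes differed less or less firmly. *Ajuba* was higher in Y428F cells, by a log2 of 0.17 with vehicle (adjusted p = 0.0306) and 0.25 with PTH (standard error 0.063, adjusted p = 0.00243). The call with vehicle was lost without WT vehicle library 2 or 3 or Y428F vehicle library 1 (adjusted p from 0.0629 to 0.171). *Limd1* had -0.17 with vehicle (adjusted p = 0.0242) and -0.14 with PTH (adjusted p = 0.063). Its call with vehicle was lost without WT vehicle library 3 (adjusted p = 0.138), without Y428F vehicle library 2 (adjusted p = 0.121) and with library totals (adjusted p = 0.102). With PTH it passed without any one of 5 libraries, WT vehicle 1 or 2, Y428F vehicle 1 or 2, or Y428F PTH 2 (adjusted p from 0.0262 to 0.0494). *Amot* had -0.15 with vehicle (adjusted p = 0.163) and -0.22 with PTH (adjusted p = 0.0413). The latter call was lost without WT vehicle library 3, WT PTH library 1 or 2, or Y428F PTH library 1 or 3 (adjusted p from 0.0543 to 0.202), with DESeq2 (adjusted p = 0.0522) and with library totals (adjusted p = 0.138). *Wwc1* had 0.928 to 1.04 CPM in Y428F cells with vehicle and 1.11 to 1.27 CPM with PTH, above all WT libraries. Its log2 fold change was 0.90 with vehicle (adjusted p = 0.0716) and 0.96 with PTH (adjusted p = 0.049). With vehicle it passed without WT vehicle library 2, at 1.39 (adjusted p = 0.0162). The call with PTH was lost without WT PTH library 2 or 3 or any one of the 6 Y428F libraries (adjusted p from 0.0613 to 0.17), and with DESeq2, no filter or the replicate block (adjusted p from 0.0512 to 0.0834). *Wwc2* differed by 0.03 with vehicle (95% interval -0.10 to 0.16) and by 0.06 with PTH (95% interval -0.07 to 0.19).

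*Amotl1*, *Amotl2* and *Limd1* lie on chromosome 9. The 572 genes of at least 4 CPM on this chromosome had a median log2 difference between the lines of -0.24 with vehicle, 76.9% of them lower in Y428F cells, and of -0.26 with PTH. Relative to the chromosome's median, *Amotl1* was at -0.17 with vehicle and -0.25 with PTH, *Amotl2* at -0.06 and -0.22, and *Limd1*, whose direction turned, at 0.07 and 0.12. For *Frmd6* on chromosome 12 (medians -0.06 and -0.05), the values relative to the median were -0.30 and -0.57, and for *Dchs1* on chromosome 7 (medians 0.00 and -0.01) they were -1.11 and -1.20. *Amot* on chromosome X (medians 0.11 and 0.09) was at -0.26 and -0.31, and *Wwc2* on chromosome 8 (medians -0.13 and -0.12) at 0.16 and 0.18. The part of the chromosome-wide shift in these differences was not tested.

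**Figure D4:**
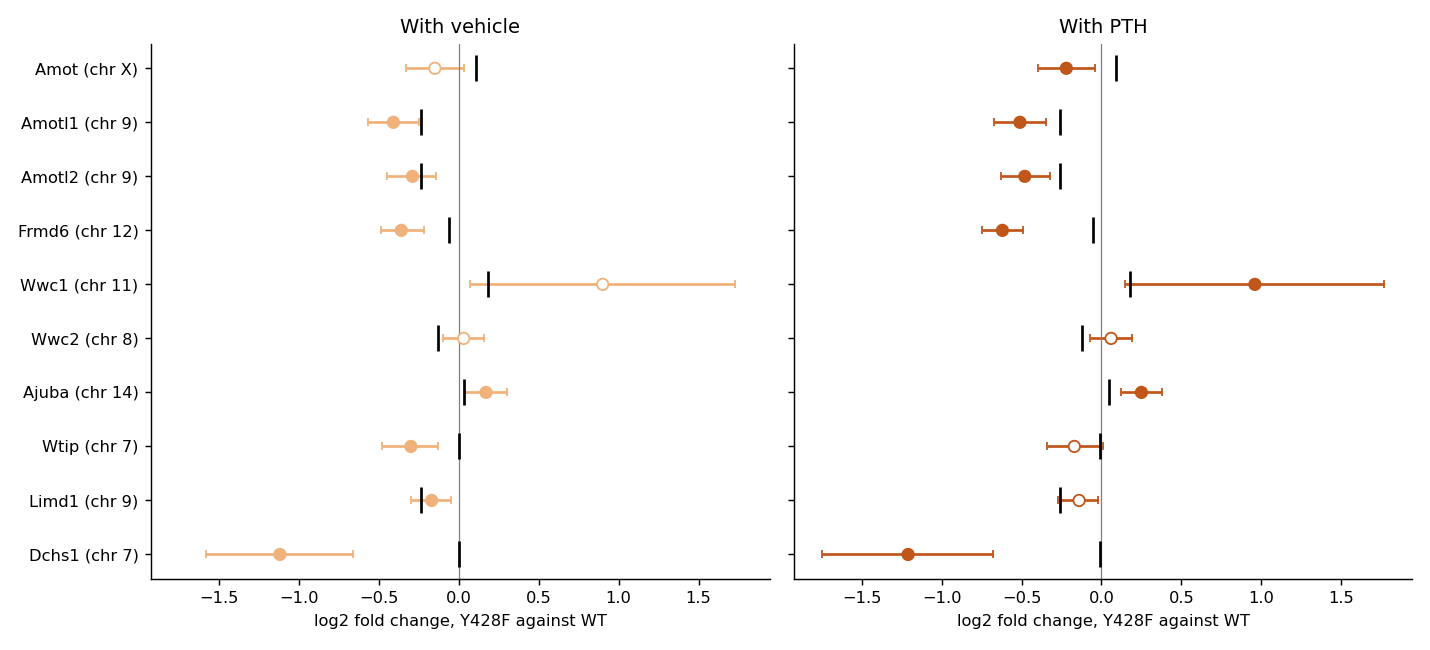
Log2 fold change of each of the 10 genes in Y428F against WT cells, with vehicle (left) and with PTH (right), with 95% intervals. Filled points have an adjusted p under 0.05, and black ticks mark the median of genes of at least 4 CPM on the same chromosome. *Dchs1* and *Frmd6* lie below their chromosome's median at both treatments, while *Limd1* lies above that of chromosome 9.

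Of 10 stromal markers, 7 had a mean above 1 CPM over the 12 libraries, led by *Col1a2* at 5790 to 13800 CPM, and *Thy1* had 0 counts in all of them. The summed level of the stromal list was 19900 to 23500 CPM in WT cells with vehicle and 19600 to 22600 CPM with PTH. In Y428F cells it was 13800 to 14800 CPM with vehicle and 10300 to 13000 CPM with PTH, without overlap. Most of the sum was *Col1a1* and *Col1a2*, with means of 7050 and 12800 CPM in WT cells with vehicle. With vehicle, *Pdgfra*, *Pdgfrb*, *Cxcl12*, *Eng* and *Runx2* were also lower in Y428F than in WT cells. Means in WT and Y428F cells were 95.2 and 31.6 CPM for *Pdgfra* and 618 and 217 CPM for *Pdgfrb*. They were 521 and 358 CPM for *Cxcl12*, 501 and 297 CPM for *Eng* and 90.2 and 73.2 CPM for *Runx2*. *Lepr* went the other way at a low level, from 0.143 to 1.03 CPM, with 1 to 5 counts per WT vehicle library. *Nt5e* had at most 2 counts in a library. Markers of blood cells summed to 0.923 to 2.21 CPM in WT libraries, and in Y428F cells to 3.08 to 3.94 CPM with vehicle and 4.04 to 4.52 CPM with PTH, led by *Ptprc*, with *Cd3e* at 0. The 3 endothelial markers summed to 0.349 to 1.07 CPM in WT cells, and in Y428F cells to 7.50 to 9.06 CPM with vehicle and 5.73 to 6.39 CPM with PTH, led by *Cdh5*, and the 3 epithelial markers to 0.246 to 0.967 CPM in WT and 2.89 to 4.79 CPM in Y428F cells, led by *Krt8*, with *Epcam* at 0. Adipocyte markers did not exceed 0.349 CPM, and *Adipoq* was at 0. The part of these differences between lines and treatments in those of the 10 genes was not tested.

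A list of 43 other Hippo genes was set beside the 10, with 14 core and effector genes and 29 other upstream genes, of which 42 were tested. With PTH, 14 of them were called higher and 3 lower in WT cells, where 7.42% and 6.01% of all genes were called. In Y428F cells 12 were higher and 3 lower, against 6.61% and 5.78% of all genes. The median log2 fold change was 0.11 in WT and 0.10 in Y428F cells, against -0.019 and -0.007 over all genes. All 8 calls among the core genes were upward in each line. The study named several of these core genes from these same libraries, *Lats2*, *Tead1*, *Tead4* and *Yap1* among them. Counts and medians over this list are therefore not independent evidence of a direction. The largest called changes of the whole list in WT cells were those of *Tead4*, which encodes a TEAD factor and rose from 6.04 ± 0.828 to 13.3 ± 1.81 CPM (log2 fold change 1.14, standard error 0.13, adjusted p = 4.61e-06), *Tead1* (0.78, adjusted p = 1.48e-06) and the LATS kinase gene *Lats2* (0.68, adjusted p = 4e-07). In Y428F cells the largest called changes were those of *Lats2* (0.75, adjusted p = 1.37e-07), *Tead1* (0.72, adjusted p = 4.62e-06) and *Dchs2*, a second Dachsous gene among the upstream genes (0.55, adjusted p = 0.00263), with *Tead4* at the same rounded value (0.55, adjusted p = 0.00335). *Dchs2* rose with PTH in both lines, from 32.9 ± 5.82 to 43.4 ± 4.17 CPM in WT cells (log2 fold change 0.40, adjusted p = 0.0212), whereas *Dchs1* fell. Per length *Dchs2* had 2.82 ± 0.498 CPM per kb in WT cells with vehicle, above the 0.307 ± 0.0300 of *Dchs1*. Their receptor gene *Fat4* had 6.44 ± 1.12 CPM in WT cells with vehicle and 6.57 ± 0.987 CPM with PTH.

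Between the lines, 16 of the 42 other Hippo genes were called higher and 12 lower in Y428F cells with vehicle, against 22.4% and 22.7% of all genes. With PTH the counts were 15 and 10, against 22.8% and 23% of all genes. The medians of the list were 0.03 with vehicle and 0.04 with PTH, against 0.012 and 0.019 over all genes. *Patj*, a scaffold of the Crumbs polarity complex, had 4 to 8 counts per WT vehicle library and 118 to 144 in Y428F cells, and 0 to 3 and 120 to 129 counts with PTH. *Fjx1*, the counterpart of the fly Four-jointed kinase that acts on Fat and Dachsous cadherins, was lower in Y428F cells like *Dchs1*, with 3.80 ± 0.867 against 1.30 ± 0.437 CPM with vehicle (log2 fold change -1.53, standard error 0.26, adjusted p = 6.14e-05). It was called lower with PTH too (-1.63, adjusted p = 3.49e-05). *Crb2* was called higher in Y428F cells with PTH (adjusted p = 0.0247) on 3 to 9 counts per library against 0 to 1 in WT cells. None of the 42 was called for the difference in response to PTH.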

How the data were processed

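Bulk RNA-Seq of 12 W-20 libraries was used. Per the labels and methods, the authors mapped reads with STAR 2.7.10b to GRCm39 with the GENCODE vM31 basic annotation and deposited RSEM expected counts per gene, not scaled for library size or length. Whether strand was used in counting is not given in the sources used here. Expected counts were rounded and tested with edgeR 4.0.16 under R 4.3.3 (TMM, 10 or more counts over all libraries, 4 groups, quasi-likelihood test, Benjamini-Hochberg adjustment). CPM used the same factors. Exonic lengths, positions and promoters came from GENCODE vM39 on GRCm39, to which 56236 identifiers were matched and 744 were not. Genes named are the 10 members, for each comparison the 3 largest calls of the other Hippo list, *Yap1*, *Tead4* in Y428F cells and *Fat4*, chosen after their values were seen, and the 3 genes most correlated with a member among those of at least 10 CPM. Some cell-type markers and some genes whose exons overlap a member are also named. Chromosome medians used genes of at least 4 CPM. The members, lists and alternatives (DESeq2 1.42.0, other scalings, filters, limits, the replicate block, a length offset, libraries left out) were chosen with earlier results of these data known. The test was tried on simulated counts. Some genes that these rules name are not reported here.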

Additional observations from a re-analysis of the deposited data

How the results depend on the processing

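Low counts limit *Wwc1* and *Dchs1*, and many calls lie near the threshold. With stricter limits, 0.01 for the adjusted p and 0.3 for the log2 change, no member was called lower with PTH (0 in each line), 1 was higher with PTH in Y428F cells, and 0 were higher in Y428F than in WT cells at either treatment. The calls among the other Hippo genes fell to 8 with PTH in WT cells, 5 with PTH in Y428F cells, 14 between the lines with vehicle and 13 with PTH. The shares of all genes called, as given above, are for an adjusted p under 0.05 in the reported fit. They are no background for these stricter counts, nor for the counts under other settings given below. For PTH in WT cells, 2 members were lower with library totals, no filter or the length offset, with or without the replicate block. For PTH in Y428F cells, 1 member was lower with DESeq2, no filter or the 6 libraries alone, and 3 were higher with library totals. With library totals the calls over all genes moved too. In WT cells 1608 genes were lower with PTH in place of 1063, and in Y428F cells 888 were higher in place of 1170. Between the lines with PTH, 1 member was higher with DESeq2, no filter, or the replicate block with or without the length offset. Without a filter, 1 other Hippo gene was called for the difference in response. *Limd1* with PTH in WT cells was at -0.03 with library totals, and at 0.07 between the lines with vehicle relative to its chromosome.

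The replicate block changed the call of 1 member, *Wwc1* (adjusted p = 0.0591), and none of the others. With it, other Hippo genes called numbered 17 and 15 with PTH in WT and Y428F cells, 28 and 25 between the lines. Same-numbered libraries of different groups did not deviate together (mean correlation 0.006 over 18 pairs, from -0.11 to 0.185), and 4 of 12 libraries correlated best with their own number. Without 1 library, members called higher and lower ranged from 2 to 4 and 0 to 2 with PTH in WT cells, 2 to 5 and 0 to 2 in Y428F cells, 0 to 1 and 5 to 6 between the lines with vehicle, and 1 to 2 and 4 to 6 with PTH. Calls of other Hippo genes ranged from 14 to 17, 10 to 15, 25 to 29 and 20 to 27. No library left out gave a call for the difference in response. Log2 values that reached or crossed 0 ranged from -0.05 to 0.72 for *Wwc1* with PTH in WT cells, -0.08 to 0.02 for *Amotl2* with PTH in Y428F cells, and -0.01 to 0.09 and 0.00 to 0.10 for *Wwc2* between the lines. For the difference in response they ranged from -0.44 to 0.33 for *Wwc1*, -0.03 to 0.07 for *Wwc2*, -0.02 to 0.06 for *Limd1*, -0.18 to 0.03 for *Dchs1* and -0.18 to 0.04 for *Amot*. Causes were not tested.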

Other observations

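Across the 12 libraries, the genes whose log2 CPM followed *Frmd6* most closely among 9104 genes of at least 10 CPM were *Egln2*, *Ehbp1l1* and *Pde4d*, with Pearson correlations of 0.986, 0.986 and 0.984. *Pde4d* encodes a cAMP phosphodiesterase and *Egln2* a prolyl hydroxylase. Those of *Wwc2* were *Ext1* (0.991), which encodes a heparan sulfate polymerase, the RNA-binding protein gene *Qki* (0.981) and *Tiam2* (0.964), and those of *Amotl1* were *Kmt2e* (0.995), *Tns1* (0.991) and *Tecpr1* (0.988). For *Dchs1* they were *Apol9a* (0.988), *Mocs1* (0.986) and *Zfp358* (0.983). Among the 10 genes themselves the highest correlation was that of *Amotl1* with *Dchs1*, 0.92, and the lowest that of *Ajuba* with *Dchs1*, -0.89. The 12 libraries share their group structure, so these values describe the order of the groups and carry no test.

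The summed level of the Ajuba family was 82.5 ± 3.42 CPM per kb (SD, n = 3) in WT cells with vehicle and 89.0 ± 5.05 with PTH, and 87.2 ± 4.42 and 99.2 ± 2.75 in Y428F cells. The share of *Ajuba* in it was 73.0% ± 1.58 and 73.6% ± 1.33 in WT cells, and 77.9% ± 0.670 and 78.7% ± 0.515 in Y428F cells, with no overlap between the lines. The share of *Wtip* was 8.64% ± 0.608 and 9.08% ± 0.737 in WT cells, and 6.62% ± 0.240 and 7.25% ± 0.357 in Y428F cells, again with no overlap between the lines.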
